A study of Mus musculus with 7 samples.

Results

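The genes described here are 9 genes of RNA sensing and the interferon response: the RNA helicase genes Ddx58, Ifih1 and Dhx58, the adaptor gene Mavs, the kinase gene Eif2ak2, the editing enzyme gene Adar, the transcription factor genes Irf3 and Irf7, and Xaf1. They were chosen by name, and all 9 had probe sets on the array: 163 of the 311384 probe sets that carry exactly 1 gene symbol. Expression was measured in 7 samples of J-1 cells, a line of mouse embryonic stem cells, all infected with a lentivirus that carried a short hairpin RNA. The hairpin was directed against luciferase, an insect gene that serves as the control, in 3 samples, against Mettl3 with hairpin 1 in 2 samples, and against Mettl3 with hairpin 2 in another 2. Mettl3 encodes the enzyme that places N6-methyladenosine (m6A) on RNA, and the study asked how its loss of function affects gene expression. No label states that replicates were grown or infected separately. The p-values therefore reflect only how much these samples differ, and that spread may be technical.

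Cells recognise viral RNA, and some RNA of their own, through sensors in the cytoplasm. RIG-I, encoded by Ddx58, binds short RNA with triphosphate ends, MDA5, encoded by Ifih1, binds long base-paired RNA, and LGP2, encoded by Dhx58, modulates both. Both sensors signal through the mitochondrial adaptor MAVS to kinases that activate IRF3 and IRF7, which switch on interferon genes, and secreted interferon then induces effector genes and many of the sensors themselves. PKR, encoded by Eif2ak2, blocks translation when it binds base-paired RNA, and ADAR converts adenosine to inosine in such RNA, which keeps the cell's own transcripts from being sensed. Xaf1 encodes an interferon-induced antagonist of the apoptosis inhibitor XIAP. Pluripotent cells are known for a weak interferon response.

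Each sample was hybridised to 1 exon array, on which a gene is covered by several probe sets, each made for 1 stretch of exon. A gene value is the median of the log2 values of those of its probe sets that were bright enough, with a mean over all 7 arrays above 6.02 (the median over every probe set). This filter kept 122 of the 163 probe sets of the 9 genes, and each gene had at least the 3 kept probe sets that were required. It kept all probe sets of Mavs (14), Adar (24) and Irf3 (14), 26 of 28 of Ddx58, 16 of 17 of Eif2ak2, 10 of 13 of Xaf1, 9 of 15 of Dhx58, 6 of 12 of Irf7 and 3 of 26 of Ifih1. Thus most of the Ifih1 signal was dim. Levels of different genes are not compared, because probe sets differ in how brightly they bind.

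Array means were 6.17 to 6.19. Mettl3 itself was at 10.14 to 10.46 in the luciferase samples and at 8.66 to 8.97 in the 4 knockdown samples (log2 fold change -1.57 ± 0.105, SE; limma adjusted p = 0.000116). All 10 markers of embryonic stem cells were measured, with 83 of their 84 probe sets kept, and none had an adjusted p below 0.05. Dppa5a differed most (-0.27, limma adjusted p = 0.0892). Of 12 markers of fibroblast feeder cells 10 were measured and none passed, with the largest difference in Pdgfra (-0.29, limma adjusted p = 0.0971). The mean level of the feeder markers was 7.75 to 7.79 with luciferase, 7.64 to 7.79 with hairpin 1 and 7.61 to 7.63 with hairpin 2. The hairpin 2 arrays thus lay below the luciferase range. At an unadjusted p below 0.05, 1 marker of the first list and 3 of the other passed.

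Ddx58 and Xaf1 fell when Mettl3 was knocked down, and the other 7 genes did not pass the test. Calls rest on limma's moderated test over all 7 arrays, with the mean of both hairpins set against luciferase and p-values adjusted by the Benjamini-Hochberg method over 16353 genes. A gene was called at an adjusted p below 0.05. Of the 9 genes, 2 were called lower and 0 higher; 2 also had an unadjusted p below 0.05. Over all genes tested, 7.9% were called, 5.53% higher and 2.37% lower. The median log2 fold change was -0.024 over the 9 genes and 0.00045 over all genes.

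Ddx58 was at 10.36, 10.44 and 10.44 on the luciferase arrays. It was at 9.99 and 10.02 with hairpin 1 and at 10.10 and 10.08 with hairpin 2. Every knockdown array was lower than the lowest control, and the control arrays differed among themselves by 0.08 at most. The RNA of the RIG-I gene was thus lower by 1.29-fold, to 77.7% of the control (log2 fold change -0.36 ± 0.073, SE; limma adjusted p = 0.015). The call was lost without luciferase replicate 1 (-0.39, adjusted p = 0.0501) and without hairpin 2 replicate 2 (-0.36, adjusted p = 0.0614). With only brighter probe sets the change was -0.56 (adjusted p = 0.00175).

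Xaf1 was at 7.39, 7.61 and 7.33 with luciferase. It was at 6.87 and 6.96 with hairpin 1 and at 6.91 and 6.996 with hairpin 2. Again no knockdown array reached the lowest control array, 7.33. The change was a 1.42-fold fall, to 70.3% of the control (-0.51 ± 0.09, SE; limma adjusted p = 0.00875), and with any 1 array left out the adjusted p was 0.0159 to 0.0351. When the dim probe sets of every gene were included, Xaf1 was at -0.19 (adjusted p = 0.345). The median change over the 10 kept probe sets of Xaf1 was -0.40, and over all 13 it was also -0.40. Why the gene value differed less with dim probe sets included was not tested.

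**Figure D1:**
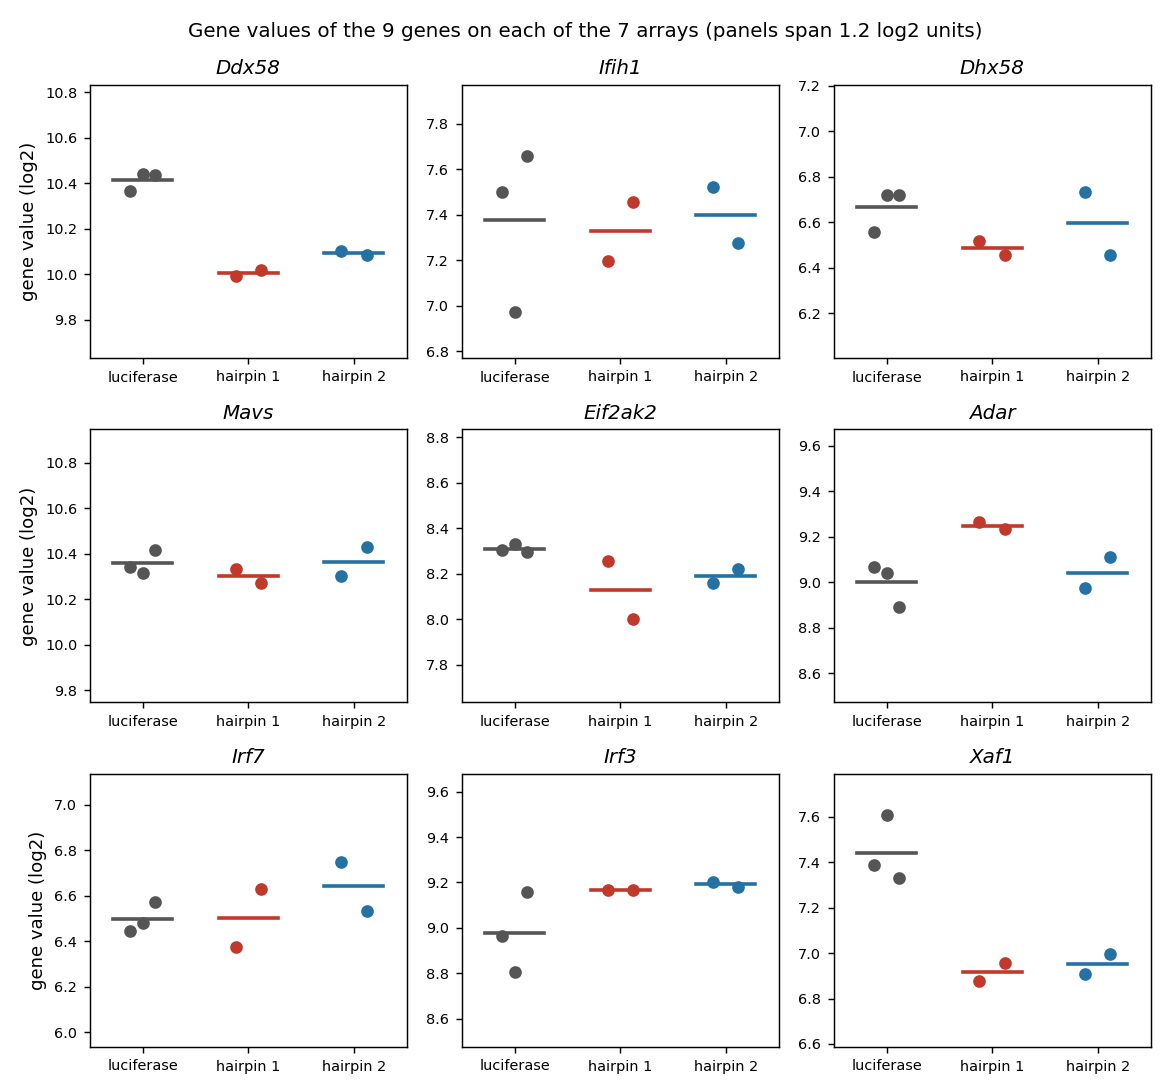
Gene values (log2, vertical axis) of the 9 genes on each of the 7 arrays, by hairpin; points are arrays and bars are group means, and each panel spans the same 1.2 log2 units. Ddx58 and Xaf1 lie lower on all 4 knockdown arrays than on any luciferase array, whereas the arrays of the 3 groups are mixed for Ifih1, Mavs and Irf7.

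The promoters of the 2 genes that fell are shown because both hold a match to an interferon-type element close to the annotated transcription start. They come from RefSeq on assembly GRCm38.p6 and run from 250 bases before the start to 50 after it, 5′ to 3′ on the strand of the gene, with matches in capitals. The Ddx58 promoter lies at chr4:40239776-40240075 on the minus strand and that of Xaf1 at chr11:72301379-72301678 on the plus strand, at a start inside the gene's outermost annotated one.
Ddx58: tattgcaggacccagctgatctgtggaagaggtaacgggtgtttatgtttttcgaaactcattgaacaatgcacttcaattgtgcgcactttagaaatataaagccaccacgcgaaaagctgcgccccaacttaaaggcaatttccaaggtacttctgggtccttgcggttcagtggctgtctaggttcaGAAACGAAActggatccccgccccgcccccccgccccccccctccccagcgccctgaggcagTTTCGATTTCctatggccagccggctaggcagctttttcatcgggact
Xaf1: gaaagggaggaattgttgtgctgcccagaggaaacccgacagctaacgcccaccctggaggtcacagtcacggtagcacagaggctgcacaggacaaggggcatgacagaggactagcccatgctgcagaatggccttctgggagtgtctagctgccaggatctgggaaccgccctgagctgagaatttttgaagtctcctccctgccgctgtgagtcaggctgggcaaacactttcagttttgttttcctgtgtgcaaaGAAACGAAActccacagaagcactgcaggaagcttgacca

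The element was searched on both strands in 2 forms, GAAANNGAAA and GAAANGAAA, where N is any base; they were chosen after the sequences had been seen. The first is held by 3.44% and the second by 3.17% of all 32851 promoters in the RefSeq table, and 6.27% hold either. Of the 9 genes 8 have a promoter in the table, and 5 of these genes hold a match. Counted as promoters, 5 of their 10 hold one. Because the forms were chosen after these sequences were seen, these counts are not a test against the share over all promoters. Both promoters above hold GAAACGAAA, which starts 60 bases before the start in Ddx58 and 10 bases after it in Xaf1. Ddx58 also has a match on the opposite strand, 2 bases after its start.

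The matches in the other 3 genes are printed for comparison, since none of these genes was called. Their windows lie at chr2:62646206-62646238 (Ifih1, minus strand), chr17:78882530-78882569 (Eif2ak2, minus strand) and chr3:89730731-89730767 (Adar, plus strand).
Ifih1: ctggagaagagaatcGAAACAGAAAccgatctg
Eif2ak2: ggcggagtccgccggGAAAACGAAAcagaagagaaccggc
Adar: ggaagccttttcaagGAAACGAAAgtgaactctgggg
Adar has 3 promoters in the table, and 1 of them holds this match, the same GAAACGAAA as in Ddx58 and Xaf1. Mavs, Irf3 and Irf7 have no match in these windows. A match is a run of letters and does not show that a factor binds there.

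Among the other sensors, Ifih1 ranged from 6.97 to 7.66 on the luciferase arrays and from 7.20 to 7.52 on the knockdown arrays. The knockdown arrays thus lay within the range of the controls, and the difference was -0.014 with a wide 95% interval of -0.36 to 0.33 (limma adjusted p = 0.968). Dhx58 was at 6.56 to 6.72 with luciferase, at 6.52 and 6.46 with hairpin 1 and at 6.73 and 6.46 with hairpin 2. Its difference of -0.12 (interval -0.33 to 0.081, limma adjusted p = 0.442) was 0.26 when dim probe sets were included, so no direction can be given. Mavs, through which RIG-I and MDA5 signal, was at 10.32 to 10.42 with luciferase and 10.27 to 10.43 with the Mettl3 hairpins. The groups overlapped (difference -0.024, interval -0.20 to 0.15, limma adjusted p = 0.88).

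Eif2ak2, the PKR gene, was at 8.31, 8.33 and 8.29 with luciferase. It was at 8.26 and 7.998 with hairpin 1 and at 8.16 and 8.22 with hairpin 2. Each knockdown array was below all control arrays, but hairpin 1 replicate 2 stood well below the other 3, and the difference of -0.15 ± 0.085 (SE) did not pass (limma adjusted p = 0.313). Adar was at 9.07, 9.04 and 8.89 with luciferase, 9.26 and 9.23 with hairpin 1, and 8.97 and 9.11 with hairpin 2. Both hairpin 1 arrays and hairpin 2 replicate 2 lay above all controls, while hairpin 2 replicate 1 lay within their range. The difference of 0.15 ± 0.082 (SE) did not pass either (limma adjusted p = 0.312).

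Irf3 encodes the factor that is present before infection and is activated by phosphorylation. It was at 8.96, 8.81 and 9.16 with luciferase, 9.16 and 9.17 with hairpin 1, and 9.20 and 9.18 with hairpin 2. The 4 knockdown arrays lay above all controls, but the hairpin 1 arrays were almost level with luciferase replicate 3, and the difference was 0.20 ± 0.094 (SE; interval -0.0065 to 0.41, limma adjusted p = 0.221). It passed under 2 alternatives, namely 0.36 with only brighter probe sets (adjusted p = 0.0102) and 0.18 with a median polish of probe sets (adjusted p = 0.0305). Irf7, which is itself induced by interferon, was at 6.44 to 6.57 with luciferase, 6.38 and 6.63 with hairpin 1, and 6.75 and 6.53 with hairpin 2. The groups overlapped (difference 0.074, interval -0.14 to 0.28, limma adjusted p = 0.674).

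In all, knockdown and control arrays did not overlap for 4 of the 9 genes, lower for Ddx58, Xaf1 and Eif2ak2 and higher for Irf3. Over all genes tested 21.8% had no overlap, 13.4% higher and 8.4% lower.

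**Figure D2:**
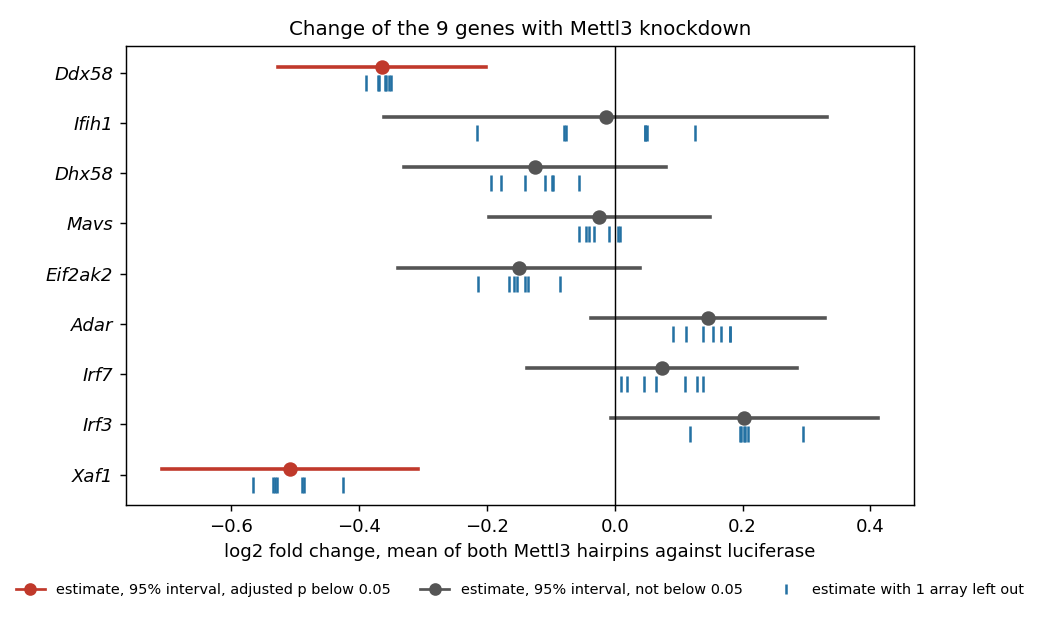
Log2 fold change (horizontal axis) of each gene averaged over the hairpins, Mettl3 knockdown against luciferase, with its 95% interval; blue ticks are the estimates with 1 of the 7 arrays left out. The intervals of Ddx58 (-0.53 to -0.20) and Xaf1 (-0.71 to -0.31) lie below 0, those of the other 7 genes include 0, and the ticks of Ifih1 spread the most (-0.22 to 0.13).

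The hairpins were also compared with luciferase one at a time; these comparisons share the 3 control arrays. With hairpin 1, 2 of the 9 genes were called, both lower (over all genes 5.89% were called and 1.93% were called lower): Xaf1 (-0.53 ± 0.107, SE; limma adjusted p = 0.0204) and Ddx58 (-0.41 ± 0.087, SE; adjusted p = 0.0247). The Ddx58 call with hairpin 1 was lost without any 1 of 5 arrays, luciferase replicates 1, 2 and 3 and hairpin 1 replicates 1 and 2 (adjusted p = 0.0642, 0.0612, 0.0596, 0.123 and 0.0864). That of Xaf1 was lost without luciferase replicate 1 (0.0542) and without hairpin 1 replicate 1 (0.126) or 2 (0.0702). Adar was at 0.25 (limma adjusted p = 0.172), Irf3 at 0.19 (0.36) and Eif2ak2 at -0.18 (0.334).

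With hairpin 2, 1 of the 9 genes was called, lower (over all genes 3.79% were called and 1.08% were called lower): Xaf1 (-0.49 ± 0.107, SE; limma adjusted p = 0.0368). Ddx58 was at -0.32 (limma adjusted p = 0.08), Irf3 at 0.22 (0.341), Eif2ak2 at -0.12 (0.571) and Adar at 0.042 (0.857). The Xaf1 call was lost without luciferase replicate 1 or 2 (adjusted p = 0.0892 and 0.0753) and without hairpin 2 replicate 1 or 2 (0.197 and 0.181).

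No gene of the 9 differed detectably between the hairpins: limma called 0, also at an unadjusted p below 0.05, against 0.104% of all genes. Hairpin 1 minus hairpin 2 was -0.036 for Xaf1 (interval -0.30 to 0.23, adjusted p = 0.96), -0.088 for Ddx58 (-0.30 to 0.12, adjusted p = 0.857) and 0.21 for Adar (-0.033 to 0.45, adjusted p = 0.632). For Eif2ak2 it was -0.061 (-0.31 to 0.19) and for Irf3 -0.026 (-0.30 to 0.25). The intervals of Xaf1 and Ddx58 allow differences of up to 0.30 between the hairpins.

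The probe sets of each gene were then fitted one by one, with p-values adjusted over 234924 kept probe sets, of which 0.532% were called lower and 1.61% higher. Of the 26 kept probe sets of Ddx58, 10 were called lower and none higher. Their changes ran from -0.81 to 0.27. Among the 13 with the higher mean signal (10.33 to 12.72), all 13 were lower, with a median of -0.53, and in 11 the knockdown arrays lay below all controls, which held for 5.98% of all kept probe sets. Among the 13 with the lower mean signal (6.70 to 10.10), 6 were lower and 7 higher, with a median of 0.0087. The largest fall was in probe set 4744678, at 10.11, 10.60 and 10.04 with luciferase, 9.29 and 9.34 with hairpin 1, and 9.54 and 9.58 with hairpin 2. Probe set 5259364 was above all controls on the knockdown arrays, by 0.27 on average, and was not called (limma adjusted p = 0.19).

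Accordingly the probe sets of Ddx58 did not move alike. Limma's diffSplice test, which asks whether the changes of a gene's probe sets differ from each other, gave an adjusted p of 3.44e-10 for Ddx58. It called 1 of the 9 genes, against 4.97% of all genes. On simulated data, with noise drawn separately for each probe set, the test called more unchanged genes than its threshold states. The value of 3.44e-10 may therefore be too small, by an amount not measured for real probe sets. Probe sets on the same arrays are also not separate replicates. Signal strength moved with the Ddx58 result, as the split above shows, and its part in the result was not tested. Which exons the probe sets cover was not analysed here.

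All 10 kept probe sets of Xaf1 were lower, from -0.94 to -0.11, and 2 were called. In probe set 5395442 the values were 7.64, 7.79 and 7.24 with luciferase, 6.48 and 6.08 with hairpin 1, and 6.97 and 6.96 with hairpin 2. In probe set 4531599 they were 8.73, 8.75 and 8.60, then 8.13 and 8.05, then 8.30 and 7.93. In both the knockdown arrays were below every control. Of the 3 dim probe sets, 2 were lower as well. The exon usage test did not call Xaf1 (limma diffSplice adjusted p = 0.308).

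Irf3 split by signal too. Its 7 probe sets with the higher signal were all higher, by 0.22 to 0.41, and in 6 of them the knockdown arrays lay above all controls (12% of all kept probe sets), whereas 4 of the 7 with the lower signal were lower. None of the 14 was called alone. The exon usage test gave an adjusted p of 0.0886 (limma diffSplice), and of 0.0382 with only brighter probe sets. The caution given above for this test holds for both values. Adar had 22 of 24 probe sets higher, between -0.16 and 0.31, with none called. Mavs had 10 of 14 higher within -0.13 to 0.19, and Eif2ak2 10 of 16 lower within -0.33 to 0.45. None of the probe sets of Ifih1, Dhx58, Irf7, Mavs or Eif2ak2 was called.

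**Figure D3:**
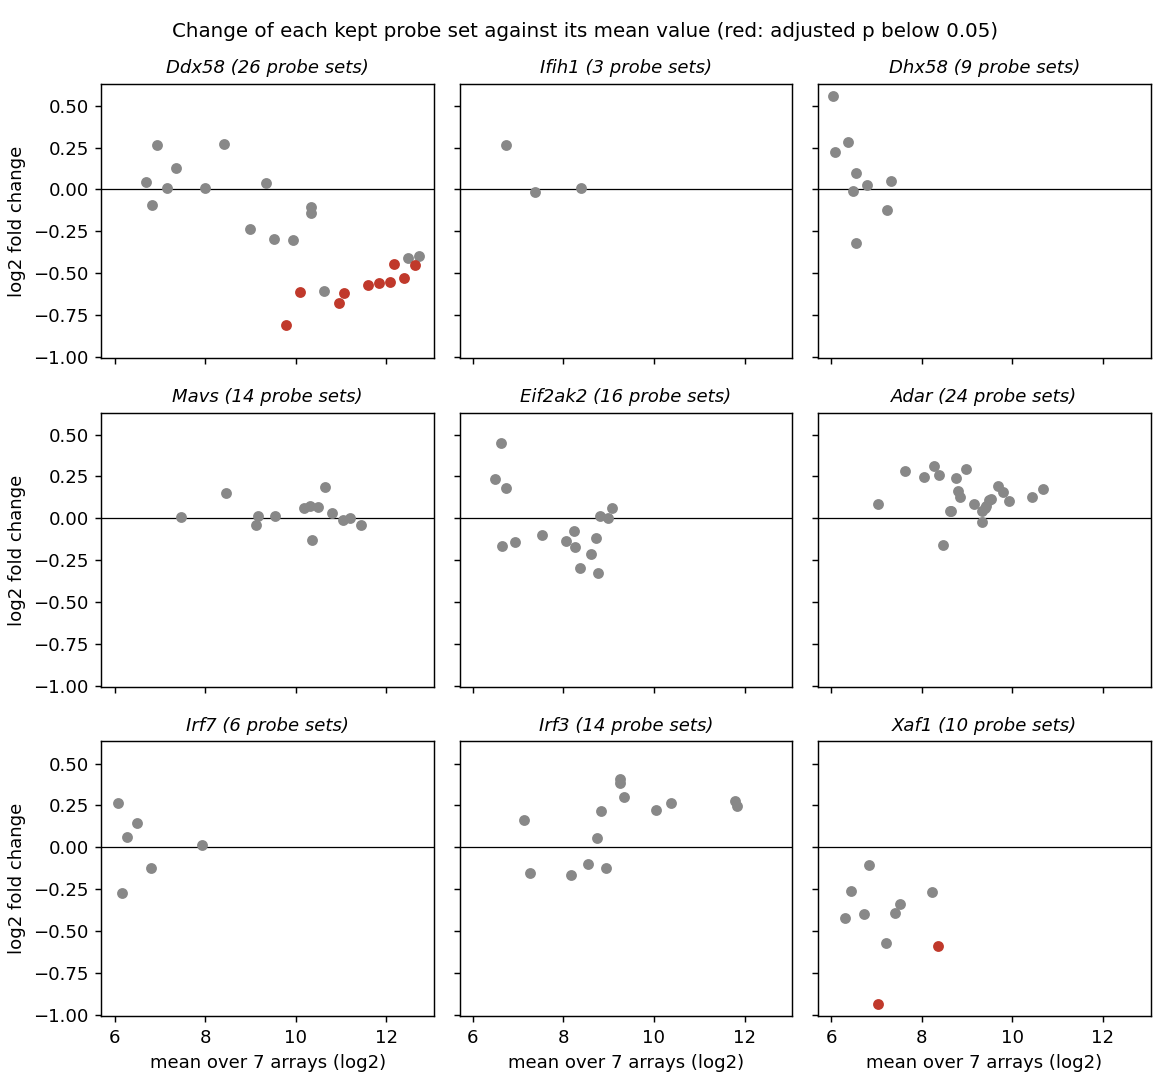
Log2 fold change of each kept probe set of the 9 genes (vertical axis, Mettl3 knockdown averaged over the hairpins against luciferase) against its mean log2 value over the 7 arrays (horizontal axis); red points have a limma adjusted p below 0.05. Of the 10 red points of Ddx58, 8 lie among its 13 brighter probe sets, the points of Xaf1 are all below 0, and Irf3 and Adar lie mostly above 0 with none red.

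The genes of the wider pathway were taken from 7 lists, which together hold the 9 genes above and 166 other symbols, of which 136 were tested. Of these 136, 7 rose and 2 fell (6.62% of them, against 7.9% of all genes), with a median of 0.046. The counts for single lists below include those of the 9 genes that belong to the list. Of the 30 symbols not tested, 11 had no probe set with a single symbol. Among interferon genes, Ifnb1, Ifna1, Ifna4, Ifne and Ifnk had no kept probe set. Neither did the effector genes Ifit2 and Ifit3, while Mx1, Mx2, Oas1a and Oas1b had 2 each, under the minimum of 3.

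Among 23 RNA sensors and adaptors, 1 rose and 1 (Ddx58) fell, with a median of -0.019. Rnf135, which encodes a ubiquitin ligase that acts on RIG-I, rose by 0.57 (limma adjusted p = 0.0256). It was at 6.75, 6.88 and 6.59 with luciferase, 7.61 and 7.07 with hairpin 1, and 7.22 and 7.34 with hairpin 2, so no knockdown array fell to the control range. Its call was lost without luciferase replicate 1 (adjusted p = 0.0781) or 3 (0.0914), or hairpin 2 replicate 1 (0.053) or 2 (0.0912).

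None of 14 genes of PKR and its partners was called by limma, and none had an unadjusted p below 0.05. The largest difference was in Ppp1r15b, which encodes a subunit of the phosphatase that reverses PKR's action (0.16, adjusted p = 0.333). None of 18 genes of RNA editing and removal of self nucleic acid was called (2 at an unadjusted p below 0.05; median 0.10). The largest differences were in Adarb2, a brain-type relative of Adar (-0.25, adjusted p = 0.101), and Apobec1, a cytidine deaminase gene (0.17, adjusted p = 0.195; 0.25 with only brighter probe sets, adjusted p = 0.0393).

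None of 28 signalling genes below the sensors was called either (4 at an unadjusted p below 0.05; median 0.020). Cgas, the sensor of cytoplasmic DNA, was at -0.31 (limma adjusted p = 0.17; -0.22 and 0.0289 with the mean of probe sets, and -0.26 and 0.0181 with the median polish), and Traf6, a ubiquitin ligase gene, at 0.26 (adjusted p = 0.0973). Of 16 interferon, receptor and JAK-STAT genes none was called for both hairpins (5 at an unadjusted p below 0.05; median 0.090). The interferon gamma receptor genes Ifngr1 (0.34, limma adjusted p = 0.0718) and Ifngr2 (0.32, adjusted p = 0.0953) had the largest differences. With hairpin 1 alone 2 genes of this list rose, Ifngr2 (0.50, limma adjusted p = 0.0499) and Stat2, a factor below the interferon receptors that was named after its value was seen (0.48, adjusted p = 0.0153). Ifngr1 and Ifngr2 passed for both hairpins with the mean (adjusted p = 0.028 and 0.0171) and with the median polish of probe sets (0.0425 and 0.0216).

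Of 34 interferon-stimulated effectors, 4 rose and 2 fell, 1 of these being Xaf1 (17.6% called, against 7.9% of all genes), with a median of 0.066 (13 at an unadjusted p below 0.05). Gbp2, a GTPase gene induced by interferon, rose by 0.98 (limma adjusted p = 0.00112); the rise was 0.65 with the mean (adjusted p = 0.000101) and 0.45 with the median polish of probe sets (adjusted p = 0.00134). It was at 5.82, 5.99 and 6.30 with luciferase, 7.39 and 7.35 with hairpin 1, and 6.64 and 6.70 with hairpin 2. The luciferase values 5.82 and 5.99 lie below the filter value of 6.02, which was applied to the mean over all 7 arrays. A probe set of Gbp2 could therefore be kept through its knockdown values. B2m, the light chain of MHC class I, rose by 0.67 (limma adjusted p = 0.00134), and Pml, the organiser of PML nuclear bodies, by 0.54 (adjusted p = 0.00773). Gbp2 is counted among the 4 that rose and in the 17.6%, so these counts depend in part on that filter. With Gbp2 set aside, the called effectors still lay on both sides of 0, with B2m and Pml up and Xaf1 down.

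The other effector that fell was Samd9l, an antiviral gene (-0.57, limma adjusted p = 0.0117). It was at 7.02, 6.82 and 7.07 with luciferase, 6.40 and 6.002 with hairpin 1, and 6.62 and 6.57 with hairpin 2, and its call was lost without luciferase replicate 1 (adjusted p = 0.054). The other one that rose was Ifitm1 (0.32, limma adjusted p = 0.0345), named after its value was seen. The Ifitm1 call was lost whichever of the 7 arrays was left out (adjusted p = 0.0601 to 0.111). Calls were also lost when dim probe sets were included for B2m (0.56, adjusted p = 0.0511), Samd9l (-0.67, adjusted p = 0.0616) and Ifitm1 (0.15, adjusted p = 0.472).

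Around XIAP, the partner of XAF1, 2 of 12 apoptosis genes rose and 1 fell (25% called in this short list, against 7.9% of all genes). Bcl2 (0.53, limma adjusted p = 0.00379) and Birc3 (0.51, adjusted p = 0.0228) encode inhibitors of cell death. Tnfsf10, the death ligand TRAIL, was at -0.52 (adjusted p = 0.012), at -0.95 with hairpin 1 (adjusted p = 0.00248) and at -0.091 with hairpin 2 (adjusted p = 0.73). The difference between the hairpins, -0.86, had a limma adjusted p of 0.0572. Bcl2 was at 0.28 with the median polish (adjusted p = 0.0232). Birc3 lost its call without luciferase replicate 1 (adjusted p = 0.0616) or 3 (0.0771), hairpin 1 replicate 1 (0.0683) or hairpin 2 replicate 2 (0.0881), and with only brighter probe sets (0.32, adjusted p = 0.0718). Tnfsf10 lost it without hairpin 2 replicate 2 (0.052) and was at -0.10 with the median polish (adjusted p = 0.427). With dim probe sets included, none of the 3 was called (limma adjusted p = 0.0974 for Bcl2, 0.123 for Birc3 and 0.12 for Tnfsf10), nor was Rnf135 (0.0912).

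**Figure D4:**
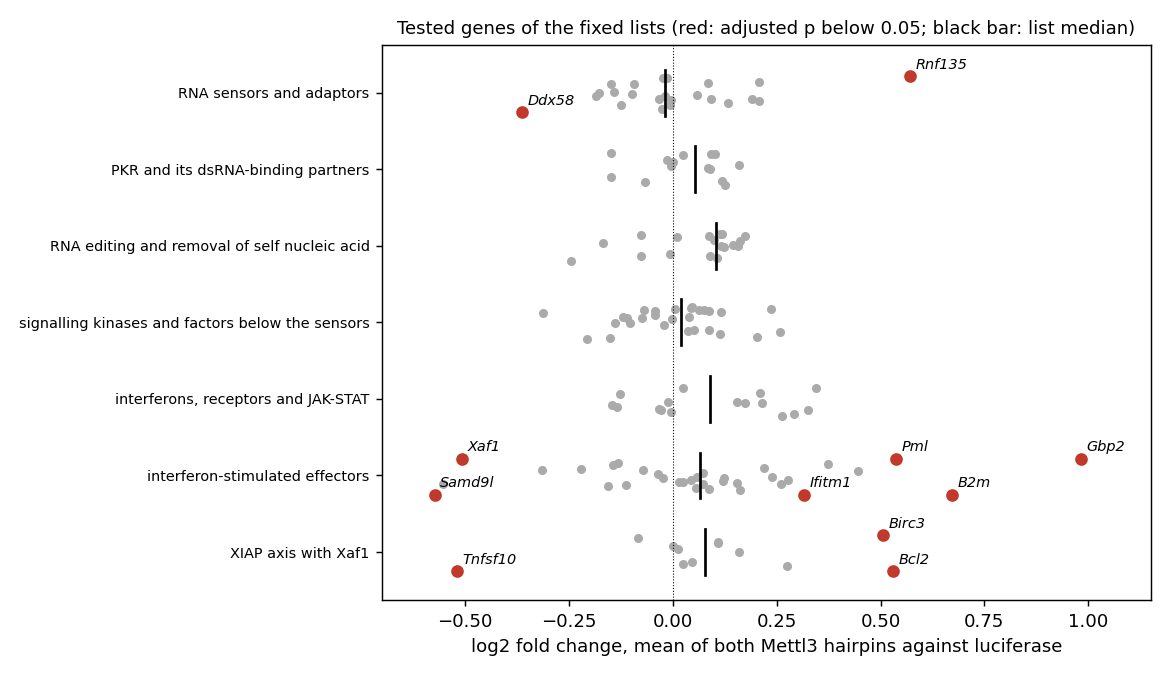
Log2 fold change (horizontal axis, Mettl3 knockdown averaged over the hairpins against luciferase) of every tested gene in 7 lists of the pathway; red points have a limma adjusted p below 0.05 and are named, and black bars are list medians. The medians lie between -0.019 and 0.10, and called genes appear on both sides of 0.

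Some markers of macrophages and other immune cells fell, as Ddx58 and Xaf1 did. Of 12 such markers 10 were tested, and 4 were called lower and 0 higher (over all genes 2.37% were called lower). These were Cd68 (-0.85, limma adjusted p = 0.000449), Laptm5 (-0.60, adjusted p = 0.00217), Adgre1 (-0.47, adjusted p = 0.00801, 5 of 26 probe sets kept) and Itgam (-0.32, adjusted p = 0.0411). The mean level of the list was 7.85 to 7.91 with luciferase, 7.53 to 7.60 with hairpin 1 and 7.58 to 7.65 with hairpin 2. Ptprc (CD45), which marks all white blood cells, had 9 of 52 probe sets kept and was at -0.074 (adjusted p = 0.616), and Csf1r, the macrophage growth factor receptor, was at -0.053 (adjusted p = 0.806). Tyrobp (-0.46, limma adjusted p = 0.15), Fcer1g (-0.16, 0.382), Cd3e (-0.066, 0.654) and Cd14 (0.055, 0.802) were not called either. The part of other cells in the falls of Ddx58 and Xaf1 was not tested, and in bulk RNA fewer cells of a type and less RNA per cell cannot be told apart.

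The genes whose values most resembled those of Ddx58 over the 7 arrays were Cubn (Pearson r = 0.992), Ndufv3 (0.989) and Cd68 (0.984). Those most like Xaf1 were Sirt1 (r = 0.984), Smc1b (0.981) and Morc1 (0.981). These are descriptions over 7 arrays that share the 3 groups, chosen as the highest among all genes tested. Cubn, an endocytic receptor gene, went from 7.23 with luciferase to 6.36 and 6.57 with hairpins 1 and 2, and Morc1, a germ cell gene, from 10.34 to 9.14 and 9.11.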

How the data were processed

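The authors deposited 1 table with a log2 value for each of 1201338 probe sets on each of the 7 arrays. The submitters' processing notes give RMA, run in R 2.11.1. Since RMA makes the distributions of all arrays alike, a global rise or fall of RNA would be lost. The RMA software package and the annotation build were not stated in the labels or file header. Gene symbols came from the platform's annotation, and older symbols of 45560 probe sets were replaced by current RefSeq ones.

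Gene values were medians of kept probe sets (229811 probe sets, 16353 genes). All 7 arrays entered 1 limma 3.58.1 model (R 4.3.3) with a term for each of the 3 groups, leaving 4 residual degrees of freedom; exon usage was tested with diffSplice. Both scripts were tested on simulated data, where the exon usage test called more unchanged genes than its threshold states. Depth has no meaning for arrays; their number limits the precision.

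The members, lists and tests were chosen with earlier results of these data known. Named genes are the 9 members, Mettl3 and, from each list, up to 4 called genes by size of change (without calls, the top 2 by size). They also include the 3 genes most like each of the 2 members with the smallest p, apart from the skipped kinds given above. Further genes were named after their values were seen. Results were recomputed with other filters for dim probe sets, other summaries, quantile normalization, centring, limma with trend and robust settings, single groups, a replicate block and leaving out each array.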

Additional observations from a re-analysis of the deposited data

How the results depend on the processing

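Xaf1 and Ddx58 were lower for the mean of both hairpins under every alternative run, at -0.57 to -0.19 and -0.56 to -0.29. The cause of the changes below was not tested. With dim probe sets included, 484 genes and 1 member were called for both hairpins (1292 and 2 in the analysis as reported), 320 and 0 for hairpin 1 (964 and 2), 92 and 0 for hairpin 2 (619 and 1) and 0 genes between hairpins (17). With only brighter probe sets, which left 5 members tested and Xaf1 not among them, 1503 genes were called for hairpin 1, 1073 and 2 members for hairpin 2 and 34 between hairpins, and exon usage called 2 members in place of 1. With 1 kept probe set per gene enough, 639 genes were called for hairpin 1, 332 and 0 members for hairpin 2 and 1 between hairpins. The mean of probe sets gave 2840 genes for both hairpins, 2259 for hairpin 1, 1626 and 2 members for hairpin 2 and 79 between hairpins. The median polish gave 2469, 2072, 1439 with 3 members, and 76, and for both hairpins 3 members. Quantile normalization left 0 members for hairpin 2. Limma with trend and robust settings gave 2 members for hairpin 2 and 29 genes between hairpins, and the 2 hairpin groups alone gave 2 genes between them. After centring, 696 genes were higher and 703 lower for both hairpins, in place of 904 and 388.

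Same-numbered samples of different groups did not deviate together (r from -0.26 to 0.083). With so few arrays per group, these correlations cannot show whether the numbers mark a shared culture or day, which the labels do not state. With a replicate block, 540 genes and 1 member (Xaf1) were called for both hairpins, 460 and 1 for hairpin 1, 208 and 0 for hairpin 2 and 3 genes between hairpins; Ddx58 was at -0.35 (limma adjusted p = 0.0984). A crossed block, added after the correlations were seen, gave 542 and 1, 389 and 0, 151 and 0, and 0.

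Signs that turned belong to values that were not called. For both hairpins these were Dhx58 (0.26 with dim probe sets, 0.087 with the mean, 0.13 with the median polish), Irf7 (-0.19 with dim probe sets, -0.066 with the median polish), Ifih1 (0.087 with the mean, 0.13 with either block) and Mavs (0.028 with the mean, 0.035 with the median polish, 0.0050 with either block). For hairpin 2 they were Adar (-0.017 with brighter probe sets, -0.039 after quantile normalization, -0.020 after centring, -0.012 with either block) and Eif2ak2 (0.0077 with the mean, 0.0017 with the median polish), and between hairpins Ddx58 (0.10 with brighter probe sets).

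Leaving out 1 array gave 605 to 1098 genes and 1 to 2 members for both hairpins, 271 to 729 and 0 to 2 for hairpin 1, 63 to 577 and 0 to 1 for hairpin 2, and 0 to 4 genes between hairpins. It moved Ifih1 between -0.22 and 0.13 and Mavs between -0.056 and 0.0077 for both hairpins, Adar between -0.026 and 0.11 for hairpin 2, and, between hairpins, Xaf1 from -0.081 to 0.0083 and Eif2ak2 from -0.19 to 0.068.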
